A study of Mus musculus with 6 samples.

Results

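The genes described here are 9 transcription factors that mark excitatory neurons of the upper and deep layers of the cerebral cortex: Neurod2, Neurod6, Cux1, Cux2, Rorb, Bcl11b, Fezf2, Tbr1 and Etv1. Their members on the array are all probe sets annotated to one of these symbols and to no other, which gave 25 of 45037 probe sets and covered 8 of the 9 genes. The 3 probe sets of Etv1 also carry the symbol of another gene and are not analysed here. HtrA2 knockout (KO) cortex was compared with wild type (WT) cortex. The KO group held 3 arrays of mice labelled HtrA2 knockout and the WT group 3 arrays of mice labelled HtrA2 wild type, all from littermates at postnatal day 29. HtrA2 is a mitochondrial serine protease. The submitters chose a cortical region in which they had seen no loss of neurons and asked which transcripts differed there. The labels used here give neither the strain, the sex nor the deleted part of the gene. Nor do they tie the arrays to individual mice, so the p-values reflect the spread among these 6 samples.

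Cortical excitatory neurons are born in sequence, and each layer is set apart by transcription factors that remain on, at least in part, after the neurons have matured. Neurod2 and Neurod6 are basic helix-loop-helix factors shared by most of these neurons. Cux1 and Cux2 are homeodomain factors of the upper layers, and Rorb, a nuclear receptor, is known for the granular layer that receives thalamic input. Fezf2 and Bcl11b, both zinc finger factors, specify deep neurons that project below the cortex, and Tbr1, a T-box factor, specifies the deep neurons that project to the thalamus.

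The stretches before the transcription start of Neurod6, Neurod2, Rorb and Tbr1 are shown because Neurod6, Rorb and Tbr1 are the genes with lower levels in KO cortex, and Neurod2 is the close relative of Neurod6 whose level differed little. Each is the 250 bases before the RefSeq start in build GRCm38.p6, read 5′ to 3′ on the strand of the gene, with E-boxes (CANNTG, the letters that basic helix-loop-helix factors bind, which read alike on both strands) in capitals.
Neurod6 (chr6:55681264-55681513, reverse strand): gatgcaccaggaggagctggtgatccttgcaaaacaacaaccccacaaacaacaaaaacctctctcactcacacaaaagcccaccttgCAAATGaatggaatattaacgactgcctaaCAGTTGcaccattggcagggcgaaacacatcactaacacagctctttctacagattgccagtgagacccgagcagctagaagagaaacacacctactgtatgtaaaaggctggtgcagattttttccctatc
Neurod2 (chr11:98329646-98329895, reverse strand): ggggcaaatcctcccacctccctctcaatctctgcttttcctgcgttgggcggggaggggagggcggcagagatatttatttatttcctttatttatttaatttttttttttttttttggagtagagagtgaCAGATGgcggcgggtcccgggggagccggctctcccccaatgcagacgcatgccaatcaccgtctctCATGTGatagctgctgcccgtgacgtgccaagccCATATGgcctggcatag
Rorb, the more upstream of its 2 starts (chr19:19111197-19111446, reverse strand): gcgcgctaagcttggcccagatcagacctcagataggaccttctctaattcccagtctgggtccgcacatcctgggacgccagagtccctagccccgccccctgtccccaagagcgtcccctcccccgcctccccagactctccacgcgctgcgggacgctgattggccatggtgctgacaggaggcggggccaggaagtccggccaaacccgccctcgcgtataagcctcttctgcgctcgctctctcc
Tbr1 (chr2:61804203-61804452, forward strand): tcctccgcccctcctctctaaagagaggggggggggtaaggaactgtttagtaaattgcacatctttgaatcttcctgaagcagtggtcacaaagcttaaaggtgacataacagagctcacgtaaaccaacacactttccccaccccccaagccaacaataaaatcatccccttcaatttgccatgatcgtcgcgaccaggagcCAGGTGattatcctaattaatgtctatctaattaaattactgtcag
The Neurod6 stretch held 2 E-boxes, that of Neurod2 3, that of Tbr1 1 and that of Rorb 0, while the stretch before the other Rorb start (chr19:19001118-19001367, reverse strand, not printed) held 2. At least 1 E-box was found in 66.2% of all 32851 RefSeq stretches of this length and in 7 of the 12 stretches of the 9 genes, so its presence is common. The narrower E-box CAGATG or its reverse complement, which is one of the CANNTG forms, was found in 14.4% of all stretches, and of the 4 shown only that of Neurod2 held it. The ROR half-site AGGTCA or its reverse complement was found in 14.0% of all stretches and in 0 of the 12 stretches of the 9 genes. The T-box half-site GTGTGA or its reverse complement was found in 12.3% of all stretches and in 3 of those 12, among them that of Neurod6. These matches describe letters and say nothing of binding.

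Levels are log2 values from RMA, which puts all arrays on nearly the same distribution, so each unit is a doubling. Levels of different probe sets are not compared with each other. Array medians lay between 6.40 and 6.46. KO replicate 2 stood apart: its values had an SD of 2.34 over probe sets, against 2.41 on the other KO arrays and 2.39 on the WT arrays, and its highest correlation with another array was 0.994, where every other array reached at least 0.997. In WT replicate 2, Ttr, a choroid plexus transcript, stood at 12.86, against 8.46 and 8.62 in WT replicates 1 and 3. The Y-linked genes were low in KO replicate 3 and WT replicate 1 (Eif2s3y 3.71 and 3.34, Uty 4.61 and 5.20) and high on the other 4 arrays (Eif2s3y 8.27 to 8.94, Uty at least 6.64), so neither group was 1 RNA source measured 3 times. Htra2 itself stood at 6.42, 7.08 and 6.45 in KO cortex at 1 probe set, against 8.89, 8.86 and 9.02 in WT cortex. Its other probe set stood at 9.35, 9.35 and 9.27 in KO cortex, against 8.23, 8.12 and 8.28 in WT cortex, and so ran the opposite way; which exons either reads was not examined. Results with and without these arrays are given for Neurod6 and Rorb, in part for Tbr1, and for the count of called member probe sets. Those of the other lists are given by the calls that were lost.

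Neurod6 fell in KO cortex, Rorb fell at 1 of its 3 probe sets, and no layer factor rose. Tbr1 was lower on every KO array without passing the test, while Neurod2, Cux2, Bcl11b and Fezf2 differed by at most 0.16 at any probe set. The test was limma's moderated test over all 45037 probe sets with Benjamini-Hochberg adjustment, called at an adjusted p under 0.05. Of the 25 member probe sets 2 were called, both lower in KO cortex, against 1.77% of all probe sets called in either direction, 0.884% as lower and 0.884% as higher. These were 2 of 8 genes, where 3.30% of all 18193 named genes had a called probe set. A gene with more probe sets has more chances of a call. These 8 genes had 25, while the 18193 shared 34945, which is fewer per gene. At 1 probe set per gene, the brightest, 1 of the 8 was called, against 2.44% of all genes. All 3 KO arrays lay below all 3 WT arrays at 7 of the 25 member probe sets, against 11.6% of all probe sets. The reverse order occurred at 0 of 25, against 11.6% of all. An unadjusted p under 0.05 was reached by 6 member probe sets, all lower in KO cortex, against 8.55% of all probe sets with such a p and a lower level, 8.33% with such a p and a higher level and 16.9% in either direction. The log2 fold changes were divided, with 13 below 0 (48.7% of all probe sets) and 12 above, and their median was -0.02, against 0.0048 over all probe sets. No filter on low values was used. A mean level above the median of all probe sets was found at 20 of the 25, and among these 2 were called as lower (1.55% of all such probe sets), 7 had every KO array below every WT array (17.0%) and 10 were below 0 (50.4%).

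The count of called member probe sets depended on the arrays and settings used, as did the share of all probe sets called. It was 2, Neurod6 and 1 Rorb probe set, among bright probe sets alone (7.80% of those called), after another quantile normalization (2.40%), after median centring (1.51%), without KO replicate 1 (0.837%) and without KO replicate 2 (6.74%). It was 3 with limma-trend and robust moderation (3.93%), 3 at an adjusted p under 0.1 (4.52%) and 4 with array weights (9.34%). It was 1, Rorb, once the Y-linked level was a covariate (0.988%), 0 at an adjusted p under 0.01 (0.175%) and 0 without both replicates numbered 2 (0.697%). It was also 0 without KO replicate 3 (0.229%), WT replicate 1 (0.155%), WT replicate 2 (0.144%) or WT replicate 3 (0.238%).

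**Figure D1:**
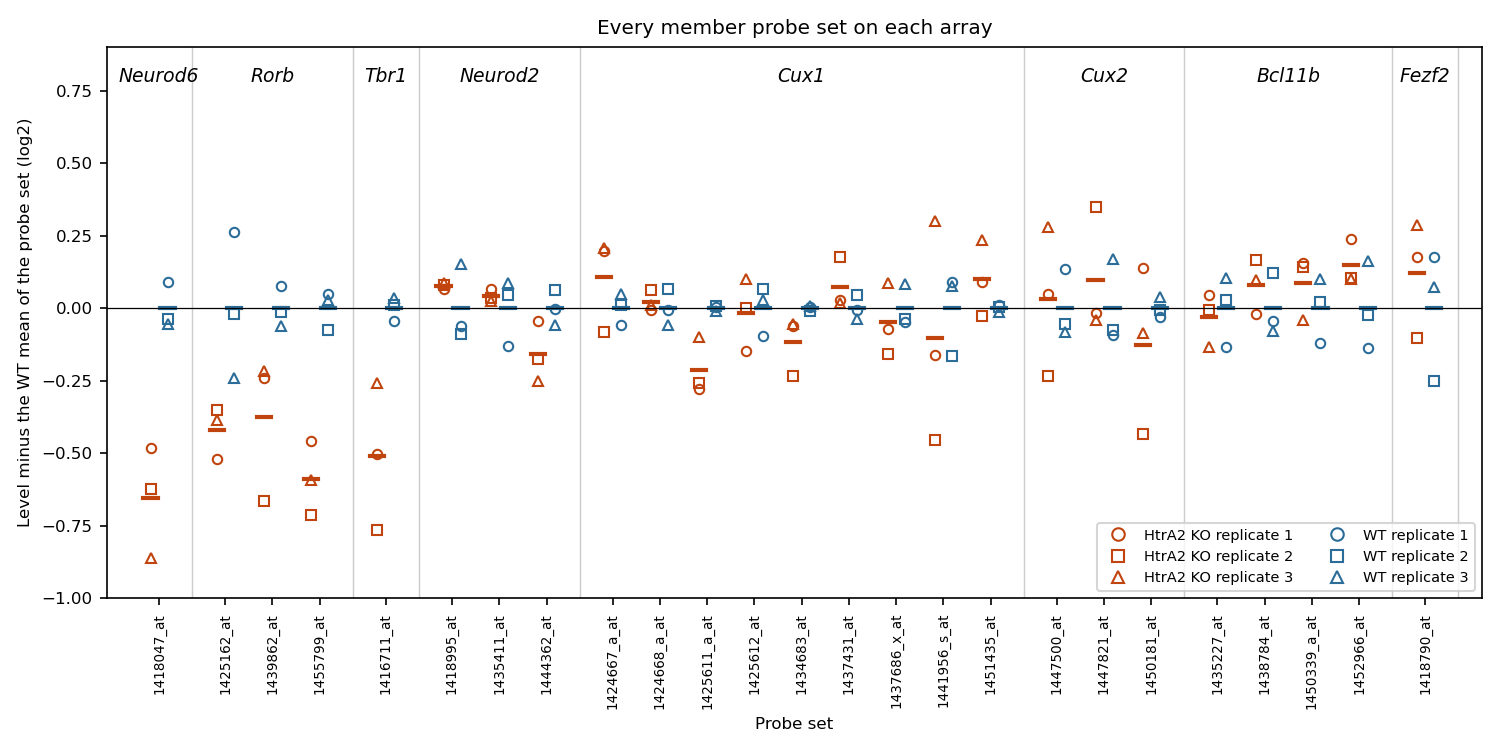
Level of each member probe set on each array, as the deviation from the WT mean of that probe set (log2, vertical axis), grouped by gene along the horizontal axis. Short lines are group means. The KO arrays lie wholly below the WT arrays at Neurod6, at all 3 Rorb probe sets, at Tbr1 and at 2 of the 9 Cux1 probe sets.

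Neurod6, a factor of mature and maturing cortical excitatory neurons, was measured by 1 probe set (1418047_at). Its level was 10.58, 10.44 and 10.20 in KO replicates 1, 2 and 3, against 11.15, 11.02 and 11.01 in WT replicates 1, 2 and 3. The lowest WT array lay above the highest KO array, and KO replicate 3 was the lowest of all. The mean was 10.40 ± 0.19 in KO cortex and 11.06 ± 0.08 in WT cortex (SD, n = 3 each). Neurod6 fell by 0.66 on the log2 scale (SE 0.11, 95% interval -0.90 to -0.41, 1.58-fold lower, limma adjusted p = 0.0301). In bulk tissue, fewer cells that express a gene and less RNA in each such cell cannot be told apart. The call was lost without KO replicate 3 (limma adjusted p = 0.085), WT replicate 1 (0.156), WT replicate 2 (0.15) or WT replicate 3 (0.0931), with a log2 fold change between -0.68 and -0.55 in these omissions. Once the Y-linked level was a covariate, the log2 fold change was -0.66 with a limma adjusted p of 0.0525, and without KO replicate 2 it was -0.67 and the call held (limma adjusted p = 0.0239). Neurod6 and Htra2 both lie on chromosome 6, and the part of their linkage in the result was not tested.

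Neurod2, which shares the basic helix-loop-helix fold with Neurod6 and acts in the same neurons, did not pass at any of its 3 probe sets. At 1418995_at its level was 9.62, 9.63 and 9.64 in KO cortex, against 9.49, 9.47 and 9.70 in WT cortex. At 1435411_at it was 9.95, 9.92 and 9.91 in KO cortex, against 9.75, 9.93 and 9.97 in WT cortex. The KO arrays lay close together and inside the WT range at both. The log2 fold changes were 0.08 (95% interval -0.12 to 0.27) and 0.04 (95% interval -0.14 to 0.23), so neither interval reached the size of the difference at Neurod6. The third probe set, 1444362_at, was dim, at 3.98 to 4.19 in KO cortex and 4.17 to 4.30 in WT cortex, and differed by -0.16 (95% interval -0.35 to 0.03).

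Rorb, the nuclear receptor of the granular layer, was lower on every KO array than on any WT array at all 3 of its probe sets, and it fell at 1 of them. At 1455799_at its level was 8.65, 8.39 and 8.52 in KO replicates 1, 2 and 3, against 9.15, 9.03 and 9.13 in WT replicates 1, 2 and 3. There it fell by 0.59 (SE 0.09, 95% interval -0.79 to -0.38, 1.50-fold lower, limma adjusted p = 0.0238). The difference was larger than the spread within either group, with an SD of 0.13 in KO cortex and 0.07 in WT cortex. At 1425162_at the level was 6.98, 7.15 and 7.11 in KO cortex, against 7.76, 7.48 and 7.26 in WT cortex, a log2 fold change of -0.42 (SE 0.13, limma adjusted p = 0.147). At 1439862_at it was 9.35, 8.93 and 9.37 in KO cortex, against 9.67, 9.58 and 9.53 in WT cortex, a log2 fold change of -0.37 (SE 0.13, limma adjusted p = 0.179). WT replicate 1 was the highest array at all 3 probe sets. The 3 probe sets share their arrays and their gene and are not 3 replicates. The call at 1455799_at was lost in the omissions that ended the Neurod6 call: without KO replicate 3 (limma adjusted p = 0.0963), WT replicate 1 (0.137), WT replicate 2 (0.117) or WT replicate 3 (0.0919). It held without KO replicate 2 (log2 fold change -0.52, limma adjusted p = 0.0162) and once the Y-linked level was a covariate (limma adjusted p = 0.0468). The difference at 1439862_at was -0.23 without KO replicate 2, the lowest array there.

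Cux1 and Cux2, the homeodomain factors of the upper layers, did not pass at any probe set. For Cux2 the level at 1447500_at was 9.87, 9.58 and 10.10 in KO cortex, against 9.95, 9.76 and 9.74 in WT cortex, and the groups overlapped. The log2 fold changes of its 3 probe sets were 0.03 (95% interval -0.27 to 0.34), 0.10 (95% interval -0.19 to 0.39) and -0.13 (95% interval -0.44 to 0.19). KO replicate 2 was the highest array at 1447821_at, at 8.96, and the lowest at 1450181_at, at 7.50, so the probe sets of Cux2 disagreed on that array.

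Cux1 had 9 probe sets, of which 4 were dimmer than the median probe set, and their log2 fold changes ran from -0.21 to 0.11. At 1451435_at its level was 9.33, 9.21 and 9.47 in KO cortex, against 9.25, 9.24 and 9.22 in WT cortex, a log2 fold change of 0.10 (95% interval -0.10 to 0.29). The KO arrays fell on both sides of a narrow WT group. At 1425611_a_at the level was 7.29, 7.31 and 7.46 in KO cortex, against 7.57, 7.57 and 7.55 in WT cortex, a log2 fold change of -0.21 (SE 0.08, limma adjusted p = 0.212). At 1434683_at it was 8.06, 7.89 and 8.07 in KO cortex, against 8.13, 8.11 and 8.13 in WT cortex, a log2 fold change of -0.12 (SE 0.08, limma adjusted p = 0.518). At these last probe sets the groups did not overlap, and the WT arrays spanned less than the KO arrays. Which Cux1 transcripts each probe set reads was not examined.

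Tbr1, the T-box factor of deep corticothalamic neurons, was measured by 1 probe set (1416711_at). Its level was 8.81, 8.54 and 9.05 in KO replicates 1, 2 and 3, against 9.26, 9.32 and 9.34 in WT replicates 1, 2 and 3. The groups did not overlap, and the KO arrays spread more widely (SD 0.25) than the WT arrays (SD 0.04). The log2 fold change was -0.51 (SE 0.12, 95% interval -0.79 to -0.22, 1.42-fold lower) and did not pass (limma adjusted p = 0.089). Without KO replicate 2, the lowest array, it was -0.38 (limma adjusted p = 0.0508). With limma-trend and robust moderation Tbr1 passed (limma adjusted p = 0.0465), and so it did with array weights (log2 fold change -0.42, limma adjusted p = 0.0283). It was called in 3 of the 16 alternatives, the other being the looser threshold of 0.1. It was called in 0 of the 6 omissions of 1 array, and its limma adjusted p reached 0.309 among the alternatives.

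Fezf2 and Bcl11b, which act together in neurons that project below the cortex, did not pass. Fezf2 stood at 9.69, 9.41 and 9.79 in KO cortex, against 9.69, 9.26 and 9.58 in WT cortex. Both groups held low and high arrays, and the log2 fold change was 0.12 (95% interval -0.20 to 0.44). Bcl11b at 1435227_at stood at 11.18, 11.13 and 11.00 in KO cortex, against 11.00, 11.17 and 11.24 in WT cortex. Its 4 probe sets had log2 fold changes from -0.03 to 0.15, and the widest of their intervals toward lower levels ended at -0.24. Bcl11b is also abundant in striatal neurons. The mean level of 8 measured striatal markers was 8.47 to 8.59 on KO arrays and 8.51 to 8.81 on WT arrays, with WT replicate 2 the highest. Of these 8, 0 passed limma's test and 2 had an unadjusted p under 0.05, against 20.5% of all genes at 1 probe set per gene. These were Rarb (log2 fold change -0.53, limma adjusted p = 0.091) and Penk (-0.46, limma adjusted p = 0.166). The list was divided, with 3 of the 8 below 0, 5 above and a median log2 fold change of 0.02.

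**Figure D2:**
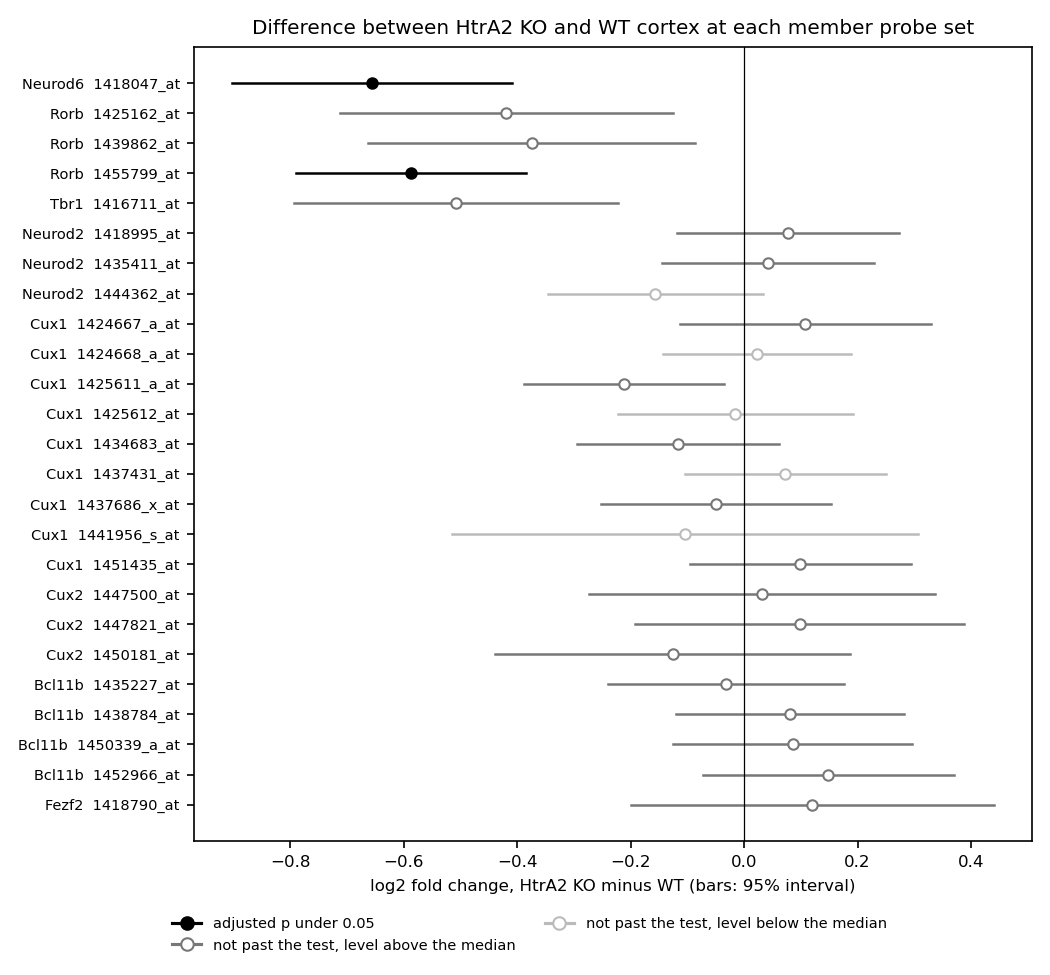
Log2 fold change, KO minus WT, of each member probe set (horizontal axis) with its 95% interval from limma; filled points passed the test. Neurod6 and 1 Rorb probe set passed, at -0.66 and -0.59, and every probe set of Neurod2, Cux2, Bcl11b and Fezf2 has an interval that includes 0.

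Whether one factor changed against another was examined within each array, for 3 pairs chosen after the values were seen: Neurod6 against Neurod2, Rorb against Cux2 and Tbr1 against Fezf2. Each gene was the mean deviation from WT over its probe sets above the median level. Neurod6 minus Neurod2 was -0.55, -0.68 and -0.92 on the KO arrays, against 0.19, -0.01 and -0.17 on the WT arrays, a difference of -0.72. Rorb minus Cux2 was -0.46, -0.47 and -0.45 on the KO arrays, against 0.12, 0.0096 and -0.13 on the WT arrays, a difference of -0.46. Tbr1 minus Fezf2 was -0.68, -0.66 and -0.54 on the KO arrays, against -0.22, 0.26 and -0.04 on the WT arrays, a difference of -0.63. In each pair every KO array lay below every WT array. The first gene of each pair had already been seen lower on every KO array, and the second to differ little. The choice of pairs thus largely set this order, which adds no support. The exact two-sided permutation test over arrays gave p = 0.1 for each pair and 0.1 after Benjamini-Hochberg adjustment over the 3 pairs, which is the smallest p that 3 arrays against 3 allow, so the design cannot pass 0.05 here.

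Other genes of the cortical layers were read from lists at 1 probe set per gene, the brightest, and over all 18193 genes 1.05% were called as lower and 1.39% as higher, with a median log2 fold change of 0.02. On the same basis 20.5% of all genes had an unadjusted p under 0.05 and 45.1% a log2 fold change below 0, the shares against which the counts below are read. The lists were chosen with earlier results of these data known, so setting their counts beside these shares is no test. Of 22 measured transcription factors of projection neurons besides the 9, 0 passed limma's test, 7 had an unadjusted p under 0.05, and the median was -0.02. Tshz2, a zinc finger factor, had the smallest p: it stood at 10.37, 9.85 and 11.20 in KO cortex, against 8.43, 8.28 and 9.38 in WT cortex. All KO arrays lay above all WT arrays, but the arrays of each group spread widely, and the log2 fold change of 1.78 (SE 0.37) did not pass (limma adjusted p = 0.0618). Emx2, a homeobox gene of the dorsal forebrain, differed by -0.52 (SE 0.16, limma adjusted p = 0.162).

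Upper layer genes that are not transcription factors were lower at 12 of 14 measured members, with a median of -0.17, and 3 fell and 0 rose. Over all genes 45.1% were lower, but this list was chosen with earlier results known, so the share is no test of it. With any probe set of a gene counted, 4 of the 14 had a called one, against 3.30% of all genes. Such a share depends on the number of probe sets per gene. Rspo1, a secreted activator of Wnt signalling known, like Rorb, for the granular layer, stood at 6.09, 6.12 and 6.09 in KO cortex, against 6.87, 6.63 and 6.58 in WT cortex, and fell by 0.59 (SE 0.09, limma adjusted p = 0.0267). Kcnh5, a voltage-gated potassium channel, stood at 5.85, 6.11 and 6.05 in KO cortex, against 7.10, 6.87 and 6.53 in WT cortex, and fell by 0.83 (SE 0.15, limma adjusted p = 0.0378). Inhba, the activin A subunit, stood at 6.47, 6.61 and 6.64 in KO cortex, against 7.28, 7.14 and 7.08 in WT cortex, and fell by 0.60 (SE 0.09, limma adjusted p = 0.022). This was 1 of its 2 probe sets, and the other was not called. In all 3 the groups were apart, and Rspo1 and Kcnh5 were dimmer than the median probe set. Scnn1a, an epithelial sodium channel subunit also used as a granular layer marker, had a log2 fold change of 0.21 (SE 0.15, limma adjusted p = 0.542), and its groups overlapped.

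Deep layer genes that are not transcription factors were divided, with 9 of 18 lower, 9 higher and a median of -0.03. Pcp4, a calmodulin-binding protein of deep neurons, was the 1 that fell: it stood at 12.47, 12.52 and 12.45 in KO cortex, against 13.09, 13.15 and 13.09 in WT cortex, a log2 fold change of -0.62 (SE 0.07, limma adjusted p = 0.00975). Ntsr1, a receptor that marks corticothalamic neurons, where Tbr1 is also known to act, stood at 7.74, 7.39 and 7.63 in KO cortex, against 7.06, 7.21 and 7.29 in WT cortex, a log2 fold change of 0.40 (SE 0.11, limma adjusted p = 0.121). All KO arrays lay above all WT arrays there, where at Tbr1 all lay below. Over these 3 lists 4 genes were called, 0 without KO replicate 3, WT replicate 1 or WT replicate 2, 1 without KO replicate 1 or WT replicate 3, and 9 without KO replicate 2. The calls of Inhba, Rspo1, Kcnh5 and Pcp4 all held without KO replicate 2, Pcp4 also held without KO replicate 1 and Kcnh5 without WT replicate 3, and each was lost in the other omissions.

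**Figure D3:**
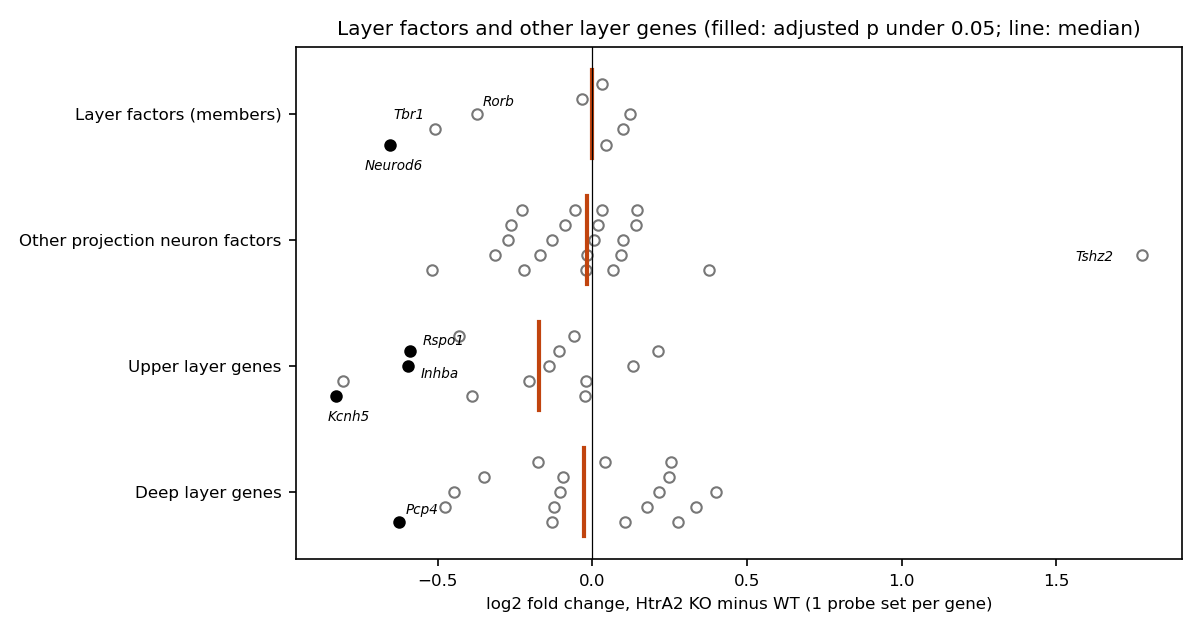
Log2 fold change, KO minus WT (horizontal axis), of each measured gene of the layer factors, of other projection neuron factors and of upper and deep layer genes, 1 probe set per gene, with the list median as a line. The upper layer genes lie mostly to the left, with a median of -0.17, and the other lists are centred near 0.

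Markers of the cell types in the tissue also differed beside the layer factors, and their part in the results was not tested. The mean level of 9 excitatory neuron markers, which include Neurod6, was 11.02 to 11.14 on KO arrays and 11.28 to 11.40 on WT arrays. All 9 were brighter than the median probe set, 8 were lower in KO cortex, and Neurod6 was the 1 that passed. Slc17a7, the vesicular glutamate transporter of these neurons, stood at 11.03, 11.06 and 10.87 in KO cortex, against 10.89, 10.93 and 11.03 in WT cortex, a log2 fold change of 0.04 (SE 0.08). The groups overlapped there, unlike at Neurod6. The mean level of 10 pan-neuronal markers was 12.44 to 12.51 on KO arrays and 12.64 to 12.67 on WT arrays, with 1 of 10, the neurofilament Nefm, lower past the test. That of 12 interneuron markers was 9.83 to 9.92 on KO arrays and 9.79 to 9.92 on WT arrays. There 0 of 12 passed limma's test and 3 had an unadjusted p under 0.05, against 20.5% of all genes. The interneuron list was divided, with 8 of 12 above 0 and 4 below, the highest being Calb2 at 0.42 (limma adjusted p = 0.411). Those with the smallest p were Pvalb, at -0.45 (limma adjusted p = 0.0548), and Sst, at -0.30 (limma adjusted p = 0.0924).

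Oligodendrocyte markers were also lower, at 10.92 to 11.03 on KO arrays and 11.21 to 11.32 on WT arrays. All 9 of them were below 0 and 1 was called, Olig2. The mean level of microglia markers was lower, at 8.48 to 8.55 on KO arrays and 8.68 to 8.90 on WT arrays. Of these 9, 7 were below 0 and 2 above, and 3 were called as lower, Itgam, Tmem119 and P2ry12. Trem2 was higher on every KO array than on any WT array (0.11, limma adjusted p = 0.49). Astrocyte markers parted, with Aqp4 and S100b lower and Gfap higher past the test among 10. Aqp4 was called at 1 of its 3 probe sets, Gfap at 2 of 3 and S100b at 2 of 2. Vascular and meningeal markers stood at 8.88 to 9.23 on KO arrays and 8.70 to 8.92 on WT arrays. Of these 10, 0 passed limma's test and 4 had an unadjusted p under 0.05, against 20.5% of all genes. The smallest p were those of Pecam1 (0.29, limma adjusted p = 0.179) and Col1a2 (0.56, limma adjusted p = 0.21). Of the neighbouring regions, thalamic markers stood at 7.61 to 7.77 on KO arrays and 7.51 to 7.58 on WT arrays. Here 0 of 10 passed limma's test and 3 had an unadjusted p under 0.05, against 20.5% of all genes. They were led by Prkcd (0.22, limma adjusted p = 0.18) and Rora (0.26, limma adjusted p = 0.219). The third, Plekhg1, went the other way (-0.20, limma adjusted p = 0.23). Of the 10 thalamic markers 7 were above 0 and 3 below. The mean level of the hippocampal markers overlapped, at 7.84 to 7.97 on KO arrays and 7.85 to 7.99 on WT arrays. Single markers parted in both directions, and 7 of 9 had an unadjusted p under 0.05, against 20.5% of all genes. On KO arrays 3 lay wholly lower and 2 wholly higher, where 2331 and 2844 of all 18193 genes did so. Lct was the 1 that passed, as lower. Choroid plexus markers stood at 5.81 to 5.88 on KO arrays and 5.82 to 7.13 on WT arrays, the highest value being that of WT replicate 2. There 0 of 7 passed limma's test and 1 had an unadjusted p under 0.05, and the smallest p were those of Ttr (-2.56, limma adjusted p = 0.255) and Clic6 (-0.28, limma adjusted p = 0.461). The calls of Nefm, Gfap, Aqp4, S100b, Olig2, Itgam, Tmem119, P2ry12 and Lct all held without KO replicate 2; those of S100b, Olig2, Itgam and Lct also held without KO replicate 1, and each was lost in the other omissions. Without WT replicate 2 Neurod6 differed by -0.67, Rorb at 1455799_at by -0.62 and Tbr1 by -0.50. These sizes were close to those with it, but 0 of the 25 member probe sets were then called.

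**Figure D4:**
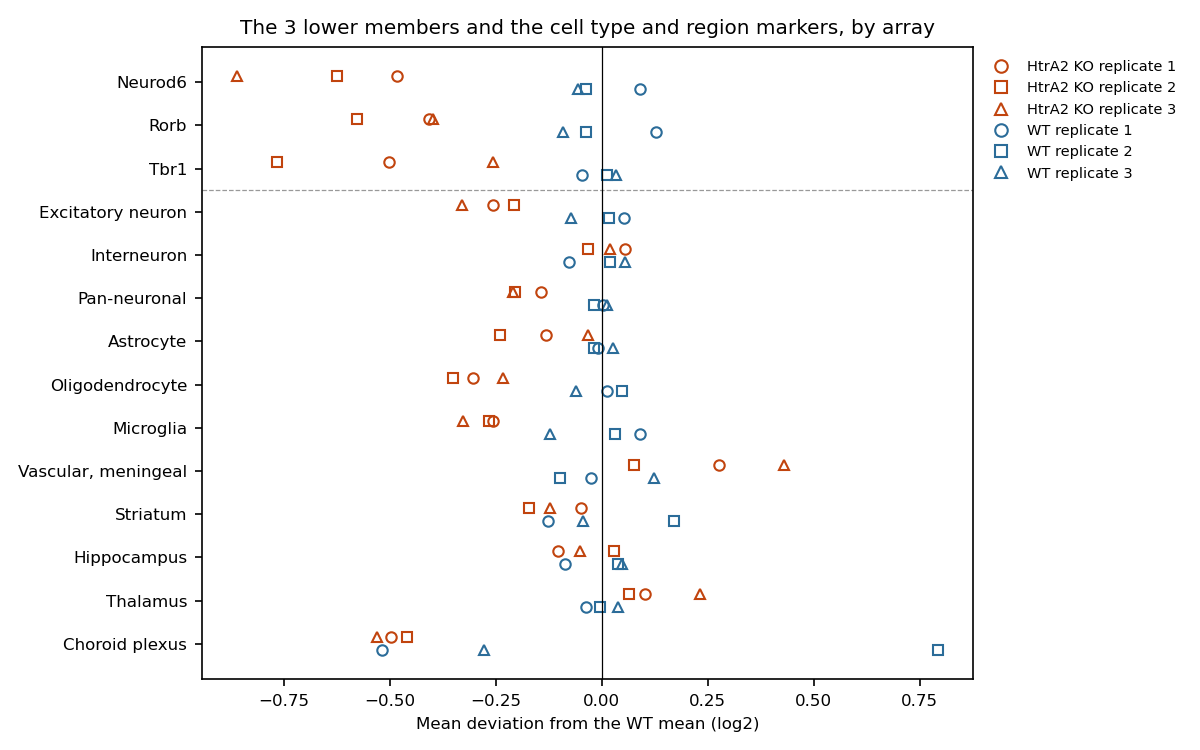
Mean deviation from the WT mean (log2, horizontal axis) on each array, for Neurod6, Rorb and Tbr1 (probe sets above the median level) and for the marker lists of cell types and neighbouring regions. The KO arrays are below the WT arrays at the 3 factors and at the excitatory neuron, pan-neuronal, astrocyte, oligodendrocyte and microglia lists, and overlap them at the interneuron, striatal and hippocampal lists.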

How the data were processed

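Cortex RNA of 3 HtrA2 KO and 3 WT samples was measured on 1 Affymetrix array each. The authors made the deposited log2 values with RMA, per the submitters' processing notes, which give no version; base 2 was inferred from their range. RMA equalises array distributions, which can hide a global change. After 64 control probe sets were left out, 45037 were tested with no brightness filter. GEO's platform annotation, with symbols updated by gene identifier through RefSeq (GRCm38.p6), gave 34945 probe sets 1 symbol, 932 several and 9160 none, and probe sets with several were not named. KO was compared with WT by limma 3.58.1 in R 4.3.3 (lmFit and eBayes, two-sided, group as the only term, Benjamini-Hochberg over all probe sets, adjusted p under 0.05). The fit was tested on simulated data. Log2 fold changes are KO minus WT. The members, lists and tests were chosen with earlier results of these data known. Named genes are all members, Htra2, and of each list those past the test by smallest p, up to 4, or the 2 with the smallest p where none passed. Scnn1a, Ntsr1, Slc17a7, Calb2, Plekhg1, Trem2 and the 3 within-array pairs were chosen after their values were seen. Alternatives were a replicate block, a brightness filter, limma-trend, requantiling, median centring, array weights, a Y-linked covariate, other thresholds and omission of arrays; the omissions for single list genes were added after seeing the data. The number of arrays limits the precision. The labels give no batch or scan date.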

Additional observations from a re-analysis of the deposited data

How the results depend on the processing

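Neurod6, Tbr1 and all 3 Rorb probe sets kept a negative log2 fold change in all 16 alternatives, but most of these could not turn a sign. The replicate block, brightness filter, limma-trend and other thresholds leave the log2 fold change itself unchanged. Because these groups do not overlap, array weights and omissions could not turn their sign either. Median centring shifts every log2 fold change alike and by little (Neurod6 from -0.656 to -0.649), so it could not do so either. Only another quantile normalization and the Y-linked covariate could have turned a sign. Neurod6 ranged from -0.74 to -0.55 and Rorb at 1455799_at from -0.65 to -0.52. The count of all called probe sets, 796, was 1757 with the brightness filter, 1770 with limma-trend and robust moderation, 4205 with array weights, 445 with the Y-linked covariate, 79 at an adjusted p under 0.01, 2035 under 0.1, 314 without both replicates numbered 2 and between 65 and 3037 without 1 array. The count of member probe sets, 2, was 4 with array weights, where Tbr1 and a second Rorb probe set (1425162_at) were added, 1 with the Y-linked covariate, 0 at an adjusted p under 0.01, 0 without both replicates numbered 2 and between 0 and 2 without 1 array. The count of called genes in the 3 layer lists, 4, was 7 with limma-trend, 12 with array weights, 1 under 0.01, 7 under 0.1, 1 without both replicates numbered 2 and between 0 and 9 without 1 array. The labels do not say that replicate numbers pair animals, and the deviations of same-numbered arrays correlated at -0.20, -0.04 and -0.17, so no KO array correlated best with the WT array of its own number; with the replicate block 154 probe sets (0.342%), 0 member probe sets and 2 list genes were called (Neurod6 adjusted p = 0.062, Rorb 0.0643). Other causes of these differences were not tested. Of the 25 member probe sets 5 were dimmer than the median probe set, and no detection calls were used here.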
